A study of Homo sapiens with 6 samples.

Results

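The 9 genes described here make or restrain pericellular proteolysis: the matrix metalloproteinases MMP1, MMP7, MMP14 and MMP15, their inhibitors TIMP1 and TIMP2, the urokinase plasminogen activator PLAU and its receptor PLAUR, and the sheddase ADAM17. They were found by name among 27238 rows of gene expression values, each on a single row. The list had been selected by the difference between Bmi1 shRNA and control libraries in these same data, so the values of the 9 genes are a description, with SD and standard error and without p-values. The cells were QBC-939, a human cell line labelled as cholangiocarcinoma, a cancer of the bile duct. The tested libraries came from 3 cultures given Bmi1 shRNA, and the control libraries from 3 cultures given scrambled shRNA, each for 48 h. All 6 shared the line and the medium, DMEM with fetal bovine serum. Replicates are described as independent transfections, every value comes from 1 cell line, and the number of shRNA sequences is not stated.

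Matrix metalloproteinases are zinc enzymes made as inactive precursors, and together they cut collagens, laminins, fibronectin and many cell surface proteins. MMP14 and MMP15 are anchored in the membrane, while MMP1 and MMP7 are secreted. TIMPs bind the active site of these enzymes and block it. Urokinase, held at the cell surface by its receptor, turns plasminogen into plasmin, which cuts matrix and activates several metalloproteinase precursors, and ADAM17 releases the ectodomains of growth factors, cytokines and their receptors.

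Levels are given in FPKM, the fragments of a gene divided by its transcript length and by the mapped fragments of the library, so that genes can be compared per length. FPKM summed to between 352800 and 360371 in the Bmi1 shRNA libraries, against 332910 to 341268 in the control libraries, and read depth is unknown. BMI1, the targeted Polycomb gene, had 1.49, 1.19 and 2.65 FPKM in Bmi1 shRNA libraries, against 6.65, 5.34 and 6.09 FPKM in control libraries, so that 29.5% of the control mean was left (log2 fold change -1.37, SE 0.19, adjusted p = 0.00162 in limma). All 10 biliary epithelial markers with a row of their own were at 1 FPKM or more in every library, and their summed level was 1574 to 1805 FPKM in Bmi1 shRNA libraries, against 1848 to 2013 in control libraries. The keratins KRT18 and KRT8 made up most of that sum, with means of 707 and 499 FPKM after Bmi1 shRNA and 840 and 549 FPKM in control. KRT7, a keratin of bile duct cells, was low, with a mean of 2.8 FPKM after Bmi1 shRNA and 2.74 FPKM in control. CFTR and AQP1, of the same list, were low too, at 3.78 and 2.22 FPKM after Bmi1 shRNA and 2.01 and 2.17 FPKM in control. The hepatocyte list had 1 of 6 genes at that level (sum 17.8 to 20.0 FPKM against 6.06 to 7.18 in control), and the intestinal list 3 of 8 (729 to 754 FPKM against 572 to 575 in control). LGALS4 and the keratin KRT20 made up most of the intestinal sum. Their means were 568 and 154 FPKM after Bmi1 shRNA, and 397 and 155 FPKM in control, so KRT20 was far above KRT7. No fibroblast gene of 4 and no endothelial gene of 3 reached 1 FPKM in every library: the fibroblast sum was 0.365 to 0.452 FPKM against 0.397 to 0.416 in control, and the endothelial sum 0.0292 to 0.0576 FPKM against 0.0725 to 0.119 in control. The leukocyte list had 2 of 5, LYZ and CD68 (sum 1517 to 1578 FPKM against 1428 to 1530 in control). LYZ, at 1532 and 1468 FPKM, made up nearly all of that sum and was not called (called lower, at -0.53 on the log2 scale, with the GC and length trend removed), while CD68 was lower (7.53 against 11.5 FPKM in control, adjusted p = 0.00198 in limma) and ITGAM, untested, had 0.322 against 0.973 FPKM in control; CSF1R stayed under 1 FPKM. The part of these marker differences in the results below was not tested. In bulk RNA, fewer cells of a type and less RNA per cell cannot be told apart.

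Among the 7 members with a mean of at least 1 FPKM, which is the threshold for testing, MMP1 was higher, and MMP15, TIMP2 and PLAUR were lower, after Bmi1 shRNA. MMP7, MMP14 and TIMP1 did not pass the threshold of the fit, an adjusted p under 0.05 over 11016 rows in limma. PLAU and ADAM17 were too low to enter it. Over all tested rows 57.1% were called, 28.6% higher and 28.5% lower, and since these libraries chose the members, nothing is read from their count of 4 in 7. The median log2 fold change of the 7 was -0.03, against -0.02 over all tested rows. The groups did not overlap for 5 of the 7, beside 65.4% of all tested rows.

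**Figure D1:**
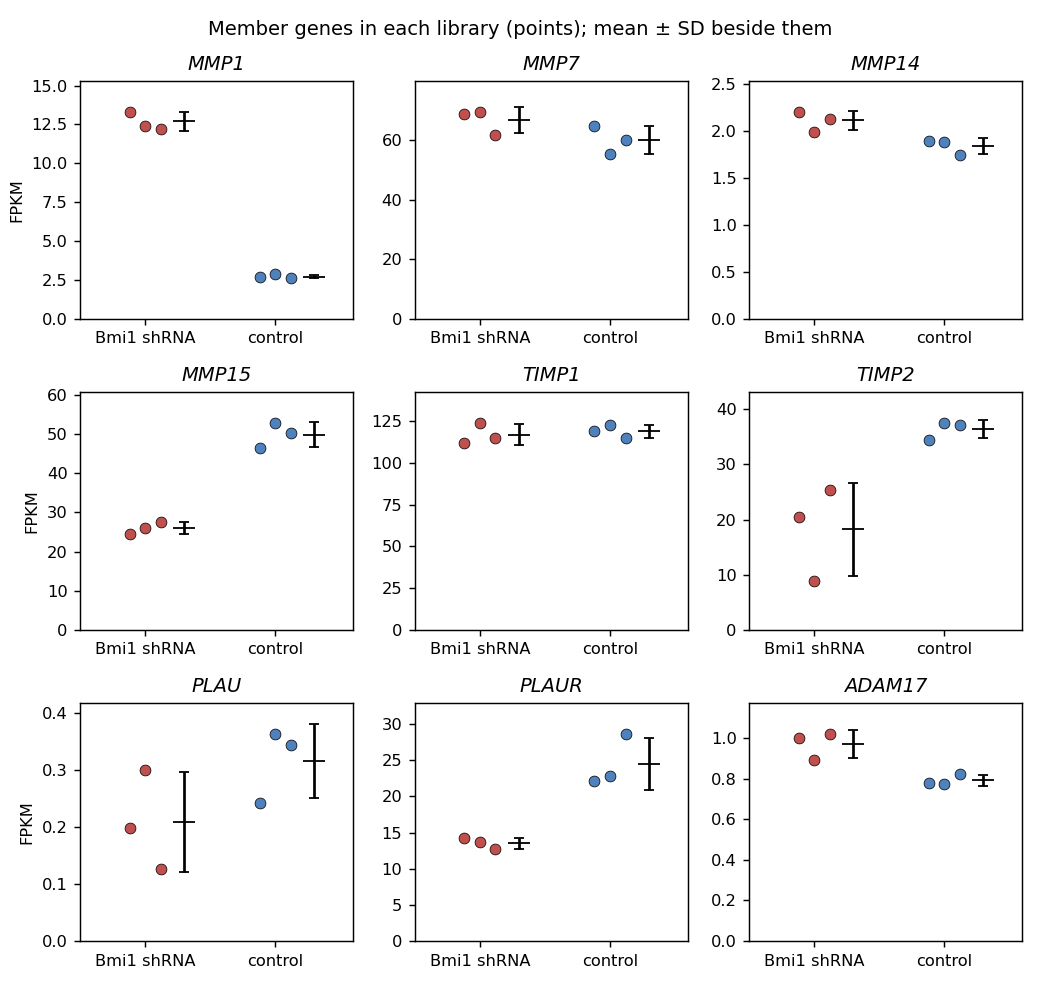
FPKM of each member gene in every library (points: Bmi1 shRNA left, control right; linear axes from 0 with their own scale; bars: mean ± SD, n = 3). The points of MMP1 lie far above control, those of MMP15, TIMP2 and PLAUR lie below it, and those of MMP7, TIMP1 and PLAU interleave.

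The order of mean levels was the same in both groups: TIMP1 was highest, followed by MMP7, MMP15, TIMP2, PLAUR, MMP1, MMP14, ADAM17 and PLAU. In control libraries no neighbours in this order overlapped. In Bmi1 shRNA libraries the ranges of MMP15 and TIMP2, of TIMP2 and PLAUR, and of PLAUR and MMP1 overlapped, although within each library MMP15 stayed above TIMP2 and PLAUR above MMP1, and MMP15 lay wholly above PLAUR and MMP1. The order broke in Bmi1 shRNA replicate 2, where TIMP2, at 8.79 FPKM, lay below PLAUR at 13.7 and MMP1 at 12.4 FPKM. The summed FPKM of all 9 members was 257, 257 and 258 in Bmi1 shRNA libraries, against 293, 297 and 297 in control libraries.

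MMP1, the interstitial collagenase that opens the triple helix of fibrillar collagens, had 13.3, 12.4 and 12.2 FPKM in Bmi1 shRNA libraries, against 2.65, 2.85 and 2.62 FPKM in control libraries. All 3 Bmi1 shRNA values lay above every control value, and the spread within each group was small beside the gap. The means were 12.7 ± 0.594 FPKM after Bmi1 shRNA and 2.71 ± 0.124 FPKM in control (SD, n = 3 each), a 4.67-fold difference. Its log2 fold change of 1.88 (SE 0.06) was the 15th largest rise among the tested rows, and after removal of the trend with GC content and length it was 1.55 and still called. In control libraries 72.1% of all rows lay below MMP1, which places it in the upper part of the table but far under the other called members.

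MMP1 lies on the minus strand of chromosome 11 at 102789920 to 102798160 (GRCh38, GENCODE 29), in a cluster of metalloproteinase genes that also holds MMP7 (102520508 to 102530753) and MMP10 (102770503 to 102780628). MMP10, stromelysin-2, which cuts proteoglycans and activates other precursors, is not one of the 9 genes. It had 1.72, 2.21 and 1.46 FPKM in Bmi1 shRNA libraries, against 0.58, 0.39 and 0.43 FPKM in control libraries, and rose (log2 fold change 0.92, SE 0.11, adjusted p = 0.0011 in limma, n = 3 each). Its control mean of 0.468 FPKM was under the threshold for testing, so it entered the fit only through its Bmi1 shRNA values. In the fit without a filter its log2 fold change was also 0.92 (adjusted p = 0.00502 in limma). It was 1.73 with a pseudocount of 0.1 and 0.56 with the GC and length trend removed, called in both. MMP3, stromelysin-1, had 0.139, 0.0272 and 0.0336 FPKM after Bmi1 shRNA, against 0, 0.0911 and 0.0293 FPKM in control, and MMP13, collagenase-3, had 0.0982, 0.0525 and 0.0645 FPKM against 0.0824, 0.0521 and 0.0194 FPKM in control. Both overlapped between groups and were too low to be tested. MMP8, MMP12, MMP20 and MMP27 were not analysed here, so the 3 tested of the 9 cluster genes were MMP1 and MMP10, called higher, and MMP7, not called. Their median, 0.92, is the value of MMP10 itself. Since MMP1 and MMP7 were chosen from these data, nothing is read from these counts about the cluster. The pseudogene WTAPP1 runs over MMP1 and MMP10 on the opposite strand and had 0.129, 0.196 and 0.177 FPKM in Bmi1 shRNA libraries, against 0.03, 0.081 and 0.025 FPKM in control libraries. The sources used here do not say whether reads were counted by strand, so reads of overlapping genes cannot be told apart; WTAPP1 was listed far below MMP1.

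MMP7, matrilysin, a small secreted enzyme of glandular epithelium that lacks the hemopexin domain, had 68.9, 69.4 and 61.6 FPKM in Bmi1 shRNA libraries, against 64.7, 55.2 and 60.0 FPKM in control libraries. The ranges overlapped, and the lowest Bmi1 shRNA library lay between control values. The means were 66.6 ± 4.33 FPKM after Bmi1 shRNA and 60.0 ± 4.76 FPKM in control (SD, n = 3 each), with a log2 fold change of 0.15 (SE 0.08) that was not called. With the trend of GC content and length removed it was -0.44 and called lower, so the direction of MMP7 turns with that step, while scaling to one total gave 0.06 and quantile normalization 0.02. Its transcript has a GC content of 43.3% and that of MMP1 43.4%, against a median of 50.4% over tested rows.

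The 250 bases before the start are shown for the cluster genes MMP7 and MMP10, beside those of PLAUR and MMP15, members that were lower. RefSeq promoters (GRCh38.p14) matched 7 of the 9 members, the exceptions being MMP1 and TIMP2. Each sequence runs 5′ to 3′ on the strand of its gene: MMP7 is chr11:102530748-102530997, minus strand; MMP10 is chr11:102780629-102780878, minus strand; PLAUR is chr19:43670170-43670419, minus strand; MMP15 is chr16:58025504-58025753, plus strand. Capitals mark TGANTCA, the core that AP-1 factors recognise, which reads the same on both strands, and GGGCGG, the core of a GC box bound by SP family factors, with its reverse complement CCGCCC.
MMP7: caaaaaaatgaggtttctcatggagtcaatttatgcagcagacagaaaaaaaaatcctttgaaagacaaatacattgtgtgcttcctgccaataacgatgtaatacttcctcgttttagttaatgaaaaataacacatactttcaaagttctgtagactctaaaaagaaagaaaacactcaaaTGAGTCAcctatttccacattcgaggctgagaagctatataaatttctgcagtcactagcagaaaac
MMP10: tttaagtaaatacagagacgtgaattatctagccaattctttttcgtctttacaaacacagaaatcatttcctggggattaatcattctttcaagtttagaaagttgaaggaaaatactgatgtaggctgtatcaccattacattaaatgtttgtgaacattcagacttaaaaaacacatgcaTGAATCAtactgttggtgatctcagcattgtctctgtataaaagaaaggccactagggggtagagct
PLAUR: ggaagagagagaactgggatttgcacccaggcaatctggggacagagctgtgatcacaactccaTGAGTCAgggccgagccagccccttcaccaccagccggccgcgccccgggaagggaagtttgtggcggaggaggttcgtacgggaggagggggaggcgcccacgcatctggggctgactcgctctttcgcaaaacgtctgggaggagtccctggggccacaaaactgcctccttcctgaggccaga
MMP15: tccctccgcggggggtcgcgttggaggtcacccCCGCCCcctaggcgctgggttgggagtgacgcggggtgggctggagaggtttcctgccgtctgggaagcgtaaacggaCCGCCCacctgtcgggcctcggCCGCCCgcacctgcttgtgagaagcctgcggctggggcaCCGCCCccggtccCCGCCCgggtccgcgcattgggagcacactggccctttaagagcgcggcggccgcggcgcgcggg
MMP7 and MMP10 each held 1 TGANTCA, which in both began 67 bases before the start, and no GGGCGG. The stretch was TGAGTCA in MMP7 and PLAUR but TGAATCA in MMP10. PLAUR held 1 TGANTCA, beginning 186 bases before the start, and MMP15 held 5 GGGCGG and no TGANTCA. Over 35116 promoters of the same length, 6.57% held TGANTCA and 42.6% held GGGCGG, and no marked motif overlapped another. GC content was 33.6% for MMP7, 34.4% for MMP10, 63.2% for PLAUR and 74.8% for MMP15. The 3 promoters with TGANTCA thus belong to a gene that rose, a gene that was lower and a gene that was not called.

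MMP14, the membrane-type enzyme that activates the MMP2 precursor and cuts collagen at the leading edge, had 2.20, 1.99 and 2.13 FPKM in Bmi1 shRNA libraries, against 1.89, 1.88 and 1.74 FPKM in control libraries. All 3 Bmi1 shRNA values were above the control values by a narrow margin. The means were 2.11 ± 0.106 FPKM after Bmi1 shRNA and 1.84 ± 0.0848 FPKM in control (SD, n = 3 each), and the log2 fold change of 0.13 (SE 0.06) was not called. With the GC and length trend removed it was 0.45 and called higher. Its transcript is GC-rich, at 58.9%.

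MMP15, a second membrane-type enzyme related to MMP14 and broadly made by epithelia, had 24.6, 26.1 and 27.6 FPKM in Bmi1 shRNA libraries, against 46.5, 52.8 and 50.2 FPKM in control libraries. Every Bmi1 shRNA value was below every control value. The means were 26.1 ± 1.51 FPKM after Bmi1 shRNA and 49.9 ± 3.16 FPKM in control (SD, n = 3 each), 1.91-fold lower, with a log2 fold change of -0.91 (SE 0.07). It was still called, at -0.61, with the GC and length trend removed. Its transcript has the highest GC content of the members with a call, 66%.

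The ratio of MMP15 to MMP14, the other membrane-type member, was 11.2, 13.1 and 12.9 in Bmi1 shRNA libraries, against 24.6, 28.0 and 28.8 in control libraries. Of the summed FPKM of the 4 member metalloproteinases, MMP1 made up 12.2%, 11.3% and 11.8% after Bmi1 shRNA, against 2.29%, 2.53% and 2.29% in control. MMP15 made up 22.6%, 23.8% and 26.7% after Bmi1 shRNA, against 40.2%, 46.8% and 43.8% in control. MMP7 held the largest share in every library, 63.2%, 63.1% and 59.5% after Bmi1 shRNA, against 55.9%, 49.0% and 52.4% in control, while MMP14 held at most 2.06% anywhere. These shares are descriptions of mRNA, computed from the values that chose the genes.

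**Figure D2:**
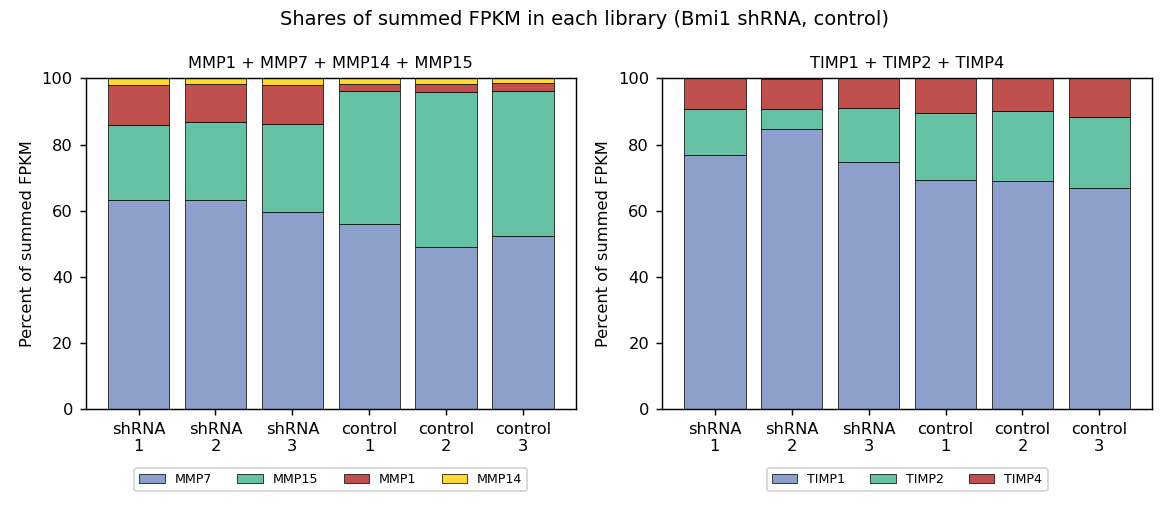
Percent of summed FPKM in each library taken by each of 4 metalloproteinases (left) and 3 TIMPs (right), Bmi1 shRNA libraries first. The MMP1 band is 11.3% to 12.2% in Bmi1 shRNA libraries and 2.29% to 2.53% in control libraries, and the TIMP2 band is narrowest, 6.02%, in Bmi1 shRNA replicate 2.

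TIMP1, a secreted inhibitor with broad reach over soluble metalloproteinases, was the most abundant member, with 112, 124 and 115 FPKM in Bmi1 shRNA libraries, against 119, 123 and 115 FPKM in control libraries. The ranges overlapped almost fully. Its means were 117 ± 6.23 FPKM after Bmi1 shRNA and 119 ± 3.76 FPKM in control (SD, n = 3 each), with a log2 fold change of -0.03 (SE 0.06) that was not called. Quantile normalization gave -0.20 and a call, and the scaling of each library to one total gave -0.12 without one; scaling to one upper quartile gave 0.01. The level of MMP1 relative to TIMP1 was 0.119, 0.101 and 0.106 in Bmi1 shRNA libraries, against 0.0223, 0.0232 and 0.0227 in control libraries.

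TIMP2, which inhibits the membrane-type enzymes and also bridges MMP14 to the MMP2 precursor, had 20.5, 8.79 and 25.4 FPKM in Bmi1 shRNA libraries, against 34.5, 37.5 and 37.2 FPKM in control libraries. The groups did not overlap, but the Bmi1 shRNA libraries were widely spread, with replicate 2 far below the other two. The means were 18.2 ± 8.53 FPKM after Bmi1 shRNA and 36.4 ± 1.65 FPKM in control (SD, n = 3 each), with a log2 fold change of -1.08 (SE 0.35). It was the most negative value of the members and carried the largest standard error. Without Bmi1 shRNA replicate 2 the log2 fold change was -0.65 and still called. The call was lost without Bmi1 shRNA replicate 1, without any 1 of the 3 control replicates, with no filter on low values, and with the GC and length trend removed, which gave -0.79.

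TIMP4, the other TIMP with a row here, fell as well, to 13.4 ± 0.101 FPKM after Bmi1 shRNA, against 18.8 ± 1.3 FPKM in control (SD, n = 3 each; log2 fold change -0.45, SE 0.06, adjusted p = 0.00164 in limma). TIMP2 made up 14.1%, 6.02% and 16.5% of the summed FPKM of TIMP1, TIMP2 and TIMP4 in Bmi1 shRNA libraries, against 20.1%, 21.0% and 21.5% in control libraries. TIMP1 made up 76.8%, 84.7% and 74.7% after Bmi1 shRNA, against 69.3%, 69.0% and 66.8% in control. TIMP4 was the 1 gene tested among the 10 other inhibitors of metalloproteinases listed. RECK, a membrane-anchored inhibitor, was at most 0.0176 FPKM in any library, and TIMP3 was not analysed here.

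PLAUR, the receptor that holds urokinase at the cell surface by a lipid anchor, had 14.2, 13.7 and 12.7 FPKM in Bmi1 shRNA libraries, against 22.1, 22.8 and 28.6 FPKM in control libraries. All Bmi1 shRNA values were below all control values, and the control group was the more spread of the pair, with replicate 3 highest. The means were 13.5 ± 0.768 FPKM after Bmi1 shRNA and 24.5 ± 3.56 FPKM in control (SD, n = 3 each), 1.81-fold lower, with a log2 fold change of -0.80 (SE 0.11). It was -0.79 with the GC and length trend removed, and called there too.

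PLAU, urokinase itself, was listed at 0.199, 0.301 and 0.126 FPKM in Bmi1 shRNA libraries, against 0.242, 0.363 and 0.344 FPKM in control libraries. The ranges overlapped. The means were 0.209 ± 0.0883 FPKM after Bmi1 shRNA and 0.316 ± 0.0652 FPKM in control (SD, n = 3 each), too low to be tested, and in the fit of all rows without a filter the log2 fold change was -0.12 (SE 0.07) and was not called. The receptor was thus listed 71.6, 45.4 and 101 times as high as its ligand in Bmi1 shRNA libraries, against 91.4, 62.9 and 83.1 times in control libraries, ranges that overlap. PLAT, the tissue plasminogen activator, was at most 0.0166 FPKM in any library.

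ADAM17, the membrane-bound sheddase that releases TNF and several EGF receptor ligands, had 1, 0.894 and 1.02 FPKM in Bmi1 shRNA libraries, against 0.778, 0.775 and 0.824 FPKM in control libraries. All 3 Bmi1 shRNA values were above the control values, and the mean over 6 libraries lay just under the threshold for testing. The means were 0.972 ± 0.0679 FPKM after Bmi1 shRNA and 0.792 ± 0.0276 FPKM in control (SD, n = 3 each), and the unfiltered fit gave a log2 fold change of 0.14 (SE 0.06) with no call. IAH1, which overlaps its end on the opposite strand, was higher than ADAM17 in every library, with 5.621, 5.485 and 4.973 FPKM after Bmi1 shRNA against 4.16, 4.515 and 4.071 FPKM in control. Since the use of strand in counting is not given, the part of IAH1 reads in the ADAM17 values was not tested.

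**Figure D3:**
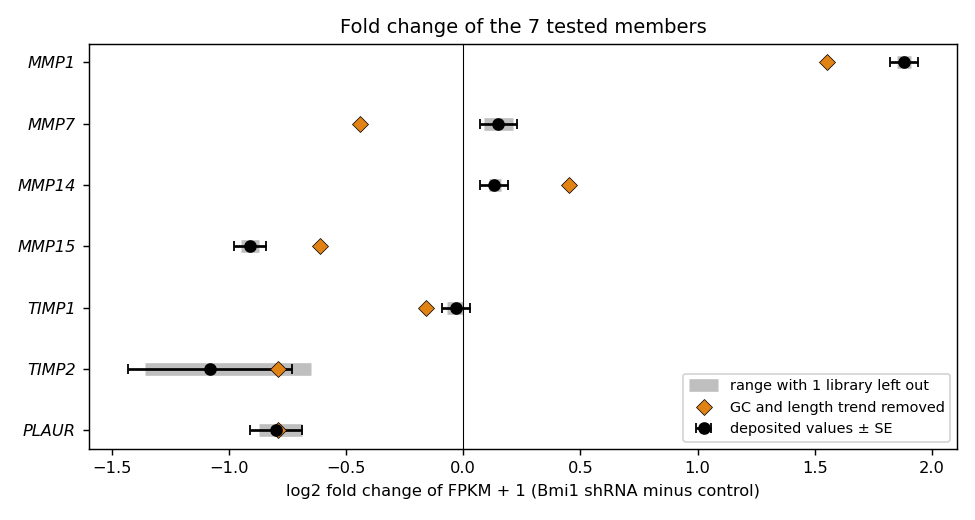
Log2 fold change of each tested member on the log2(FPKM + 1) scale, Bmi1 shRNA minus control, with its standard error (black points and bars), the range with 1 library left out (grey) and the value with the GC and length trend removed (diamonds). MMP1 is positive and MMP15, TIMP2 and PLAUR are negative in every value drawn, while the diamond of MMP7 lies at -0.44, on the other side of 0 from its point at 0.15.

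The genes that share these pathways were counted from 13 lists, drawn up with earlier results of these data known. Of 287 genes in them other than the members, 154 were tested in limma, of which 29 rose, 71 fell and 54 were not called. The share called, 64.9%, compares with 57.1% over all tested rows. The median over all tested rows was -0.02 on the log2 scale, and each list's median is given beside its counts.

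**Figure D4:**
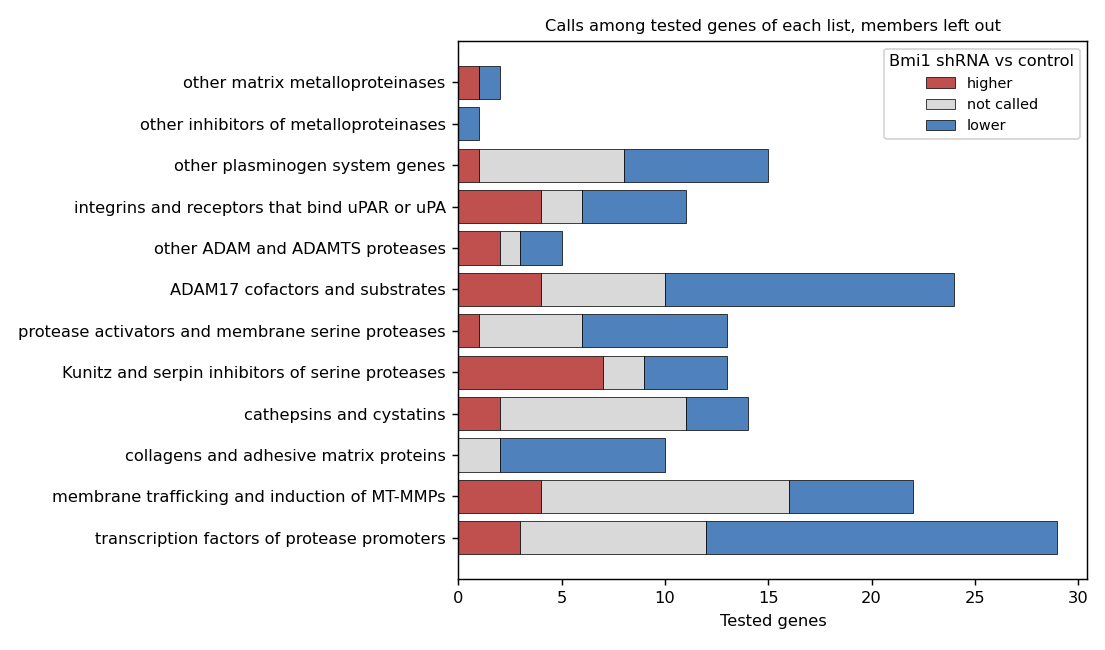
Number of tested genes called higher, called lower or not called in each pathway list other than the chromosome 11 cluster, by limma, Bmi1 shRNA against control. Collagens and adhesive matrix proteins had 8 of 10 called lower and 0 higher, and Kunitz and serpin inhibitors had 7 of 13 called higher.

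Few other metalloproteinases were expressed at a level that could be tested. Of the 14 with a row of 19 listed, 2 were tested: MMP10, which rose, and MMP24, a membrane-type enzyme, which fell to 3.23 ± 0.158 FPKM after Bmi1 shRNA, against 6.01 ± 0.819 FPKM in control (SD, n = 3 each; log2 fold change -0.72, adjusted p = 0.00129 in limma; -0.38 and called with the GC and length trend removed). MMP24 is overlapped on the opposite strand by MMP24OS, which was higher than MMP24 in every library. MMP2, gelatinase A and the best known substrate of MMP14, was listed at 0.132, 0.107 and 0.053 FPKM after Bmi1 shRNA against 0.112, 0.0987 and 0.122 FPKM in control. MMP9, gelatinase B, was at most 0.0717 FPKM after Bmi1 shRNA and at most 0.0936 FPKM in control.

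Other genes of the plasminogen system had 1 higher, 7 lower and 7 not called of 15 tested, with a median log2 fold change of -0.05. SERPINF2, the plasmin inhibitor alpha-2-antiplasmin, rose to 36.0 ± 1.31 FPKM after Bmi1 shRNA, against 24.3 ± 1.49 FPKM in control (SD, n = 3 each; adjusted p = 0.000865 in limma). SERPINE2, an inhibitor of thrombin and urokinase, fell to 1.52 ± 0.0425 FPKM, against 2.45 ± 0.0435 FPKM in control (adjusted p = 0.00106 in limma). LRP8, a lipoprotein receptor, and ENO1, a glycolytic enzyme that also binds plasminogen at the cell surface, fell by 0.49 and 0.46 on the log2 scale, and by 0.24 and 0.25 with the GC and length trend removed, where the list had 2 higher and 7 lower (median -0.21). Among integrins and receptors that bind PLAUR or PLAU, 4 rose, 5 fell and 2 were not called of 11 tested (median -0.36). ITGB5, an integrin beta chain for vitronectin, had 19.7 ± 0.246 FPKM after Bmi1 shRNA, against 31.9 ± 1.27 FPKM in control (SD, n = 3 each; adjusted p = 0.000329 in limma). ITGA3, a laminin receptor chain, had 10.2 ± 1.35 FPKM after Bmi1 shRNA, against 18.1 ± 1.58 FPKM in control (adjusted p = 0.00152 in limma), and EGFR and IGF2R, which binds PLAUR, fell by 0.61 and 0.70 on the log2 scale. With the GC and length trend removed the list had 2 higher and 4 lower (median -0.14), and the log2 fold changes were -0.34 for ITGB5, -0.41 for ITGA3, -0.34 for EGFR and -0.33 for IGF2R, all called. ITGB1, at 0.64, and FPR1, at 0.32, were called higher there, while ITGAV, at 0.14, and ITGB6, at -0.01, were not called.

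The relatives and partners of ADAM17 moved in both directions. Of 5 other ADAM and ADAMTS proteases tested, 2 rose, 2 fell and 1 was not called (median 0.04). ADAM10, the sheddase closest to ADAM17 in function, had 2.38 ± 0.262 FPKM after Bmi1 shRNA, against 1.42 ± 0.0658 FPKM in control (SD, n = 3 each; log2 fold change 0.48, adjusted p = 0.00248 in limma), and 0.19 with the GC and length trend removed (adjusted p = 0.0407 in limma). ADAM9 rose by 0.36, and ADAM15 and ADAM19 fell by 0.32 and 0.89 on the log2 scale, but none of these 3 was called with that trend removed, where ADAM9 turned to -0.02, ADAM15 was -0.06 and ADAM19 -0.49. ADAM19, a gene under 1 FPKM after Bmi1 shRNA, was -1.82 with a pseudocount of 0.1 and -1.46 when scaled to one total. It entered the fit only through its control values, with a mean of 1.66 FPKM. ADAM17 cofactors and substrates had 4 higher, 14 lower and 6 not called of 24 tested (median -0.31). RHBDF1, an inactive rhomboid protein that ADAM17 needs to mature, had 14.3 ± 3.03 FPKM after Bmi1 shRNA, against 25.0 ± 4.03 FPKM in control (SD, n = 3 each; log2 fold change -0.77, adjusted p = 0.00857 in limma), and its relative RHBDF2 fell by 0.44 on the log2 scale. With the GC and length trend removed neither was called, and the list had 3 higher and 7 lower (median -0.17). Among substrates and related surface proteins, TGFA fell by 0.45 and NECTIN4, an adhesion protein, by 0.81, while TSPAN8, a tetraspanin, had 153 ± 12.9 FPKM after Bmi1 shRNA, against 78.0 ± 6.94 FPKM in control (SD, n = 3 each; log2 fold change 0.96, adjusted p = 0.000493 in limma). NECTIN4 was -0.51 and TSPAN8 0.33 with the trend removed, both called.

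Enzymes that activate protease precursors, counted with membrane serine proteases, had 1 higher, 7 lower and 5 not called of 13 tested (median -0.22). FURIN, the convertase that removes the propeptides of MMP14, MMP15 and ADAM17, had 18.4 ± 2.66 FPKM after Bmi1 shRNA, against 28.6 ± 1.47 FPKM in control (SD, n = 3 each; log2 fold change -0.62, adjusted p = 0.00309 in limma). ST14, matriptase, which can activate urokinase, fell to 64.4 ± 5.26 FPKM, against 86.6 ± 3.63 FPKM in control, and PRSS8, prostasin, its partner in epithelia, to 31.9 ± 2.65 FPKM, against 49.7 ± 4.14 FPKM in control (adjusted p = 0.00335 and 0.00165 in limma). DPP4, a membrane dipeptidyl peptidase, was the gene that rose, with 18.9 ± 0.859 FPKM after Bmi1 shRNA, against 7.19 ± 0.495 FPKM in control (SD, n = 3 each; adjusted p = 0.000212 in limma). With the GC and length trend removed the list had 1 higher and 6 lower (median -0.13), and FURIN was -0.28 (adjusted p = 0.0161) and ST14 -0.13 (adjusted p = 0.0473, both in limma).

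Collagens and adhesive matrix proteins, the substrates of these enzymes, had 0 higher, 8 lower and 2 not called of 10 tested (median -0.62). COL17A1, a transmembrane collagen of hemidesmosomes, had 3.13 ± 0.231 FPKM after Bmi1 shRNA, against 7.32 ± 0.207 FPKM in control (SD, n = 3 each; log2 fold change -1.01, adjusted p = 0.000247 in limma). COL18A1 and AGRN, proteoglycans of basement membranes, fell by 0.89 and 0.68, and THBS1, thrombospondin-1, by 0.60 on the log2 scale. The median GC content of the list was 62.1%, and with the GC and length trend removed 2 were higher and 6 lower (median -0.29), with COL17A1 at -0.62, COL18A1 at -0.52 and AGRN at -0.30, all called. THBS1 was -0.91 with a pseudocount of 0.1.

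Transcription factors known from protease promoters had 3 higher, 17 lower and 9 not called of 29 tested (median -0.39), and 3 higher and 15 lower with the GC and length trend removed (median -0.18). JUN, an AP-1 subunit, had 21.7 ± 0.405 FPKM after Bmi1 shRNA, against 43.7 ± 2.84 FPKM in control (SD, n = 3 each; log2 fold change -0.98, adjusted p = 0.000247 in limma). ETS2, a factor that acts beside AP-1 at several metalloproteinase promoters, had 72.5 ± 3.02 FPKM after Bmi1 shRNA, against 126 ± 4.86 FPKM in control (adjusted p = 0.00028 in limma). SMAD3, a mediator of TGF-beta signals, fell by 0.83, and TCF7L2, a partner of beta-catenin, by 1.02 on the log2 scale, and SMAD3 was -0.49 with the trend removed. The 3 that rose were HIF1A, BACH1 and EHF, by 0.96, 0.57 and 0.35 on the log2 scale. The control mean of BACH1, 0.676 FPKM, was under the threshold for testing, so BACH1 entered the fit only through its Bmi1 shRNA values. Of the 3, HIF1A alone was called with the trend removed, at 0.46. Whether the levels of these factors bear on those of MMP1, MMP10 or PLAUR was not tested.

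The rows whose profiles over the 6 libraries lay nearest to MMP1, by root mean square distance of centred log2(FPKM + 1), were TFRC at 0.110, MDK at 0.113 and FXYD2 at 0.128. For TIMP2, the member with the most negative log2 fold change, they were TMEM231 at 0.127, F2RL1 at 0.142 and SRRM2 at 0.150. TMEM231, a protein of the ciliary transition zone, had 2.99, 0.897 and 2.96 FPKM in Bmi1 shRNA libraries, against 5.09, 5.12 and 5.25 FPKM in control libraries. F2RL1, a receptor that serine proteases activate by cleavage, had 19.8, 7.92 and 17.8 FPKM in Bmi1 shRNA libraries, against 29, 29.6 and 30 FPKM in control libraries. SRRM2, a splicing factor, had 11, 6.55 and 15.6 FPKM in Bmi1 shRNA libraries, against 21.9, 27.0 and 23.5 FPKM in control libraries. All 3 had their lowest value in Bmi1 shRNA replicate 2, as TIMP2 did, which is what the measure of likeness selects for.

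**Figure D5:**
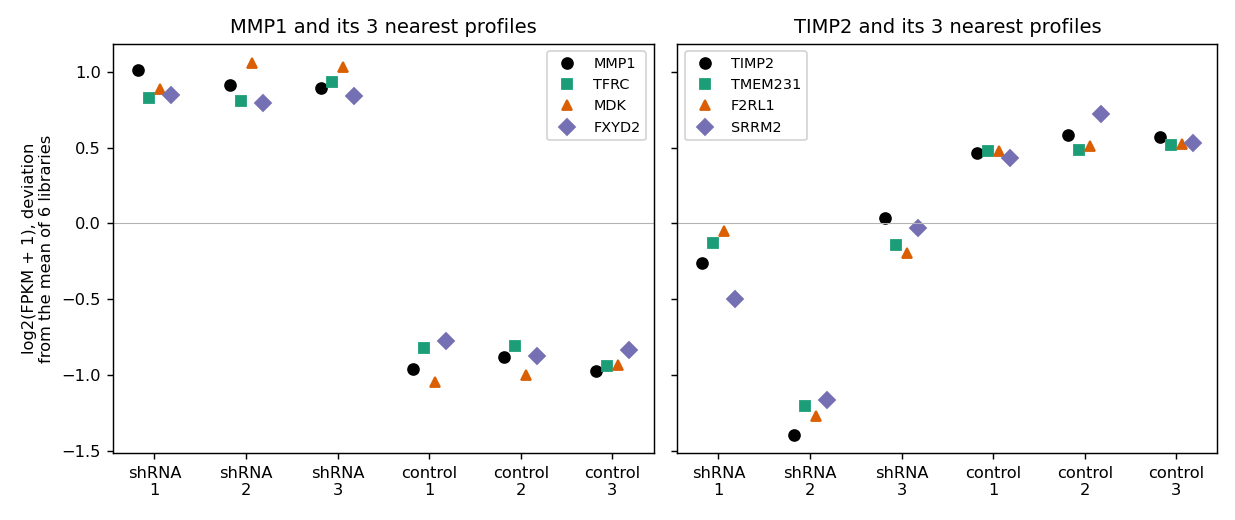
Deviation of log2(FPKM + 1) from the mean of the 6 libraries for MMP1 (left) and TIMP2 (right) with the 3 nearest rows of each, Bmi1 shRNA libraries first. The MMP1 group is level within each group of libraries, and the TIMP2 group is lowest in Bmi1 shRNA replicate 2.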

How the data were processed

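RNA of 3 Bmi1 shRNA and 3 control (scrambled shRNA) cultures of QBC-939 cells was analysed from 1 table of FPKM values deposited by the authors. Its columns, named Sc and Sh with a number, were matched to the titles (Sc to control, Sh to Bmi1 shRNA) by that number. Tools listed in the submitters' processing notes, without roles, are StringTie 1.3.0, HISAT2 2.0 and Bowtie 0.12.2. The same notes name build mm8, a mouse build, while the labels give human and 19870 of 27238 row names are human symbols, so the build is unsettled. Per the labels' protocols, libraries were poly(A)-selected and paired-end, but that text also names adipose tissue, so it may not hold here. The table has no counts. At most 1.72% of low rows (both values under 0.5 FPKM) shared the commonest ratio to control replicate 1 (bins of 0.001), so whole reads could not be recovered, depth is unknown and no count test was run. FPKM cannot show a change in total mRNA per cell.

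Log2(FPKM + 1) values were fitted with limma 3.58.1 (R 4.3.3) for the 11016 rows that averaged 1 FPKM or more, with group as the sole term, eBayes with a trend in the variance, and Benjamini-Hochberg adjustment over these rows (called at 0.05). Fold changes on this scale understate those of low genes, and folds are ratios of mean FPKM. P-values set the difference between groups against the spread between these cultures of 1 line, with the variance of each row moderated by that of the other rows. The script was tested on simulated data. The members and lists were chosen with earlier results of these data known. Named genes were the members, BMI1, up to 4 uniquely named genes per list with the smallest p, the chromosome 11 cluster, the 3 nearest profiles of MMP1 and of the member with the most negative change, and listed paralogs or partners; some genes that the rule or the marker lists hold are not reported here. IAH1, WTAPP1, MMP24OS and the marker genes are named outside this rule, for their position or as markers. ITGB1, ITGAV, ITGB6, FPR1, HIF1A, BACH1 and EHF are also named outside it, as the genes of their lists that rose. The trend of each library with GC content and length (longest protein-coding transcript, GENCODE 29, known for 92.8% of tested rows) was removed with natural splines of 5 degrees of freedom each; this also removes any true change that goes with them. Other alternatives were a pseudocount of 0.1, no filter or a stricter one of 5 FPKM, scaling to a total of 1000000 or to one upper quartile, quantile normalization, the replicate number as a block, and each library left out.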

Additional observations from a re-analysis of the deposited data

How the results depend on the processing

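Of 11016 tested rows 6295 were called. A mean of at least 5 FPKM left 3478 called, of 5641 rows, and 62 of the list genes, against 100, since fewer rows are tested. With the GC and length trend removed 4057 of 10225 rows and 85 list genes were called. Leaving out 1 library gave 5226 to 6122 called rows, 3 to 4 called members and 89 to 101 called list genes. Scaling to a total of 1000000 called 2649 rows higher of 6357 (main 3152 of 6295) and moved the median of all rows to -0.10. Members called numbered 3 without a filter and 5 with quantile normalization or the trend removed. ADAM9 turned to -0.02 with the trend removed (adjusted p = 0.837 in limma) and SPINT2, not called as deposited (0.03), to -0.13 with quantile normalization (adjusted p = 0.0325 in limma), while it was called higher, at 0.11, with the trend removed (adjusted p = 0.0459 in limma); the causes were not tested. Same-numbered libraries did not deviate together (correlations 0.003737, -0.07907 and -0.02338), so the numbers are not known to pair cultures, and with a replicate block 5658 rows, 4 members and 92 list genes were called. Depth is unknown, so the counting error of low values could not be estimated.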

Other observations

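Of 13 tested Kunitz, serpin and related inhibitors, 7 rose, 4 fell and 2 were not called in limma (median log2 fold change 0.20), and 5 rose and 2 fell with the GC and length trend removed (median 0.03). SPINK1, a secreted trypsin inhibitor, had 40.7 ± 3.05 FPKM after Bmi1 shRNA, against 19.0 ± 1.11 FPKM in control (SD, n = 3 each; log2 fold change 1.06, adjusted p = 0.00028 in limma), and its log2 fold change was 0.24 with the trend removed (adjusted p = 0.018 in limma). SERPINA1, alpha-1-antitrypsin, had 215 ± 5.07 FPKM after Bmi1 shRNA, against 156 ± 4.99 FPKM in control (log2 fold change 0.46, adjusted p = 0.000619 in limma), with 0.75 after the trend was removed and 0.29 after quantile normalization, both called. SPINK5 rose by 0.83 and TFPI, an inhibitor of the tissue factor pathway, by 0.57 on the log2 scale, although TFPI was not called with the trend removed (0.03) and was 0.87 with a pseudocount of 0.1. SPINT1, an inhibitor of matriptase, had 22.4 ± 4.73 FPKM after Bmi1 shRNA, against 31.7 ± 2.96 FPKM in control (adjusted p = 0.027 in limma), a call lost without Bmi1 shRNA replicate 1 or 2, without control replicate 1 or 3, without a filter and with the trend removed. SPINT2, its relative, had 179 ± 3.50 FPKM after Bmi1 shRNA, against 175 ± 3.48 FPKM in control, and was not called, although it was called higher with the trend removed (0.11) and lower with quantile normalization (-0.13).

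Cathepsins and cystatins had 2 higher, 3 lower and 9 not called of 14 tested (median -0.01). CTSV, a lysosomal cysteine protease, and CST1, a cystatin, rose by 0.62 and 0.57, and CTSZ and LGMN, lysosomal proteases, fell by 0.43 and 0.36 on the log2 scale. After removal of that trend the list had 3 higher and 3 lower, and CTSV was 0.37, CST1 0.36 and LGMN -0.23, all called. Genes for the trafficking and induction of membrane-type metalloproteinases had 4 higher, 6 lower and 12 not called of 22 tested (median -0.16). ACTR2, a subunit of the actin-branching complex, RAB27A, which directs secretory vesicles, and IQGAP1, a scaffold, rose by 0.70, 0.78 and 0.70 on the log2 scale, and ACTR2 was 0.27 and RAB27A 0.33 with the trend removed, both called. CD44, a hyaluronan receptor that docks metalloproteinases, had 18.4 ± 1.39 FPKM after Bmi1 shRNA, against 30.9 ± 2.34 FPKM in control (SD, n = 3 each; adjusted p = 0.000806 in limma).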
